A study of Mus musculus with 16 samples.

Results

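Ephb2, Ephb3 and Ephb4 encode EphB receptor tyrosine kinases, and Efnb1 and Efnb2 encode ephrin-B1 and ephrin-B2, the membrane-bound ligands of these receptors. These 5 genes were taken by name from the 24421 genes listed in both matrices, and no measured value entered the choice. They were followed as levels from the crypt to the villus and between the 2 genotypes of the study.

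Single cells of small intestinal crypt isolates came from outbred mice at postnatal day 16 that had received no treatment. The wild-type group (WT) and the ROBO-Crainbow group (ROBO) each have 8 labelled samples, and 2 microfluidic cartridges were used for each genotype. In ROBO mice, Cre driven by the Villin promoter, which is active in intestinal epithelium, recombines a transgene at the Rosa locus so that a cell expresses human RSPO3 or 1 of 2 PTPRK-RSPO3 fusions, each with its own fluorescent protein. Which of these a cell carries is not given by its name, and neither is the mouse or the labelled sample it came from. Each genotype is therefore 1 pooled sample, no test or p-value between genotypes was possible, and the number of cell barcodes shared by libraries could not be counted. All intervals below are exact 95% intervals for counting error alone; how much mice differ is not in them.

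Eph receptors and ephrins signal on contact between neighbouring cells, in the receptor-bearing cell and in the ligand-bearing cell, and often lead the cells to part. In the intestinal crypt, EphB2 and EphB3 are known as targets of Wnt signalling that are high at the crypt base, while ephrin-B ligands are known to be high towards the villus. The opposing gradients keep dividing and differentiated cells in their places, and EphB3 is known to hold Paneth cells at the crypt base. RSPO3, the transgene product, is a secreted factor that strengthens Wnt signalling. EphB4 and its preferred ligand ephrin-B2 are best known from arteries and veins.

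The genes lie on 5 chromosomes of the mouse genome (GRCm38, positions from GENCODE M21). Ephb2 lies on chr4:136647539-136835988 on the minus strand, Ephb3 on chr16:21204755-21223305 on the plus strand, and Ephb4 on chr5:137350109-137378669 on the plus strand. Efnb1 lies on chrX:99136130-99148991 on the plus strand, and Efnb2 on chr8:8617434-8661242 on the minus strand. The 250 bases before the RefSeq start (GRCm38.p6) are shown for the receptor with the largest difference between crypt and villus, for the receptor with the highest UMI count beside it, and for the ligand that was highest in bottom enterocyte-like cells. Capitals mark the GC box GGGCGG or its reverse complement CCGCCC, read 5′ to 3′ on the strand of the gene.
Ephb4, chr5:137349859-137350108, plus strand: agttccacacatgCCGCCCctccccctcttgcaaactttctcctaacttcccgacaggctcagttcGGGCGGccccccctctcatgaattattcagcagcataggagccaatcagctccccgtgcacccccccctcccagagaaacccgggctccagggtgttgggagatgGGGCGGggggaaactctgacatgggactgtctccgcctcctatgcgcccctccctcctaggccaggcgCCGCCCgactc
Ephb2, chr4:136836013-136836262, minus strand: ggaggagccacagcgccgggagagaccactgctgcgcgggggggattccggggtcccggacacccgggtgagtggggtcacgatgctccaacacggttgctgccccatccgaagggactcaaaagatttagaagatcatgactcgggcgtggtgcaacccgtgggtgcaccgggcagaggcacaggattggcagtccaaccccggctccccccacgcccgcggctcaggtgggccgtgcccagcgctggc
Efnb2, chr8:8661243-8661492, minus strand: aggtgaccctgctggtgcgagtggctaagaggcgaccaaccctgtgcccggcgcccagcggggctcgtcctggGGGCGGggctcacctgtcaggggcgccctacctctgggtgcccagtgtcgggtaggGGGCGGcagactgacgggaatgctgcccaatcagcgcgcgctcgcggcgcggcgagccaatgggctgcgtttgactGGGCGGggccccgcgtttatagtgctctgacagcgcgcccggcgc

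All 5 genes had 1 entry among the 32851 RefSeq windows. The core of the TCF/LEF motif, CTTTG or CAAAG on the other strand, occurred in none of the 5 windows, while 48.6% of all windows of this length held it. The GC box occurred 4 times before Ephb4, 3 times before Efnb2 and 2 times before Ephb3, and not before Ephb2 or Efnb1, and 32.7% of all windows held it. The windows were rich in G and C, from 60.0% before Efnb1 to 72.0% before Efnb2, against a median of 52.4% over all windows. A match or its absence describes these letters only and says nothing of binding.

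The kit captures the 3′ end of transcripts and tags each captured molecule with a unique molecular identifier (UMI), so a count is a number of molecules. There were 2682127 UMIs in 1348 WT cells and 2428435 UMIs in 1249 ROBO cells, with medians of 1492 and 1610 UMIs per cell. Clustering, with all Eph and ephrin genes kept out of the genes it used, gave 13 clusters, of which 12 were named from marker genes. The crypt isolates also held villus cells. Stem cell-like cells (706) and transiently amplifying-like cells (703), the dividing progeny of stem cells, were the largest classes. Bottom, middle and top enterocyte-like cells, named for position along the villus, numbered 157, 415 and 226. Secretory (127), enteroendocrine-like (30), immune-like (45) and fibroblast-like (8) cells were fewer, and a cluster of 180 cells led by stress and immediate-early genes such as Atf3 and Fosb stayed unnamed, with 7.94% of WT and 5.84% of ROBO cells. The stem cell marker Lgr5 stood at 1.13 UMIs per 10000 in stem cell-like cells and at 0.102 in the sum of middle and top enterocyte-like cells, called villus cells below. Alpi, intestinal alkaline phosphatase of the enterocyte brush border, stood at 1.74 and 19.4 per 10000. Lgr5, itself among the naming markers, did not set stem cell-like apart from transiently amplifying-like cells in ROBO. It stood at 1.31 in WT and 0.928 in ROBO stem cell-like cells, and at 0.792 and 0.983 in transiently amplifying-like cells. Of the stem cell-like cells, 378 came from a shallow cluster named on 4 markers, with a median of 832.5 UMIs.

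The members were sparse. Over all cells, Ephb2 had 236 UMIs in WT and 193 in ROBO, Ephb4 236 and 164, Efnb1 198 and 178, Ephb3 95 and 94, and Efnb2 72 and 54. No cell held more than 4 UMIs of any of them. In immune-like cells, taken as a measure of free RNA in the droplets, Ephb2 and Ephb3 had 1 UMI each among 89872 UMIs and the other 3 members had none, which allows up to 0.334 per 10000. Alpi had 13 UMIs there, 1.45 per 10000, close to its level in stem cell-like cells. For Ephb2 and for Ephb3, the level there was 0.111 per 10000 with an upper bound of 0.620. Levels below 0.334 for Ephb4, Efnb1 and Efnb2 cannot be told from free RNA by this measure, nor can levels below 0.620 for Ephb2 and Ephb3. Among them are those of Efnb2 in stem cell-like and villus cells and of Ephb4 in villus cells. So are those of Ephb3 in both crypt classes, bottom enterocyte-like cells and villus cells. The same holds for Ephb2 in bottom enterocyte-like cells and in ROBO villus cells.

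The receptors were considered first. Ephb2 was highest in the crypt classes of both genotypes. In stem cell-like cells it had 77 UMIs in WT, 1.18 per 10000 (0.935 to 1.48), and 60 UMIs in ROBO, 1.05 per 10000 (0.802 to 1.35). In transiently amplifying-like cells it stood at 1.13 in WT and 1.07 in ROBO, so that both crypt classes overlapped within counting error. In villus cells its level was 0.713 (0.507 to 0.975) for WT and 0.463 (0.310 to 0.665) for ROBO. The lowest level of Ephb2 among the enterocyte-like classes was that of bottom enterocyte-like cells, with 6 UMIs in each genotype, 0.259 in WT and 0.277 in ROBO. Within the middle class, the cluster led by Sis held 7 UMIs in WT, 0.484 per 10000, and 3 in ROBO, 0.186 per 10000. The difference between stem cell-like and villus cells, given as a log2 ratio, was 0.73 (0.16 to 1.33) for WT and 1.18 (0.52 to 1.87) for ROBO, folds of 1.66 and 2.27.

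Ephb4 had the largest difference of the 5 genes. Its level in stem cell-like cells was 1.25 per 10000 (0.990 to 1.55) for WT and 0.911 (0.680 to 1.19) for ROBO, and in transiently amplifying-like cells 1.27 and 1.205. Bottom enterocyte-like cells held 21 UMIs in WT, 0.906 per 10000, and 10 in ROBO, 0.461 per 10000. Middle enterocyte-like cells held 7 and 5 UMIs, and top enterocyte-like cells 0 in WT and 1 in ROBO. Stem cell-like cells therefore exceeded villus cells by a log2 ratio of 3.28 (2.18 to 4.64) for WT and 3.25 (2.03 to 4.76) for ROBO, folds of 9.74 and 9.51. At the villus base Ephb4 was still counted, and bottom enterocyte-like cells of both genotypes together exceeded villus cells 6.24-fold (3.17 to 12.99). Among crypt cells, Ephb4 was lower in those scored in G1 phase, 0.679 per 10000 (0.491 to 0.914), than in S, 1.39 (1.18 to 1.62), or G2/M, 1.24 (1.03 to 1.47). The cells scored in G1 were shallower, with a median of 1117 UMIs against 1732 and 1720, and the part of depth in this was not tested. The other 4 members had overlapping intervals in the 3 phases.

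For Ephb3, the difference between stem cell-like and villus cells did not exceed counting error. Its levels were 0.446 (0.299 to 0.641) and 0.329 (0.195 to 0.520) in WT and 0.525 (0.354 to 0.750) and 0.399 (0.258 to 0.589) in ROBO, and the log2 ratios were 0.44 (-0.46 to 1.37) and 0.40 (-0.42 to 1.22). Clustering at a resolution of 0.5 gave 0.86 (0.07 to 1.66) for ROBO, an interval that left out 0, and 0.54 (-0.32 to 1.42) for WT. Without regression of the phase scores the ratio was below 0, at -0.26 (-1.88 to 1.13) for WT and -0.03 (-1.41 to 1.19) for ROBO. Against top enterocyte-like cells alone it was 0.01 for WT and -0.07 for ROBO. The other settings kept it above 0 in both genotypes. In bottom enterocyte-like cells Ephb3 had 1 UMI in WT and 0 in ROBO among 448532 UMIs of both. Outside the absorptive lineage, the 30 enteroendocrine-like cells held 6 UMIs of Ephb3 in 4 cells, 1.31 per 10000 (0.479 to 2.84). Clustering at a resolution of 1.2 parted the secretory cells into 39 cells led by Paneth genes and 89 led by goblet genes. The Paneth-led cells held 5 Ephb3 UMIs in 5 cells, 0.818 per 10000 (0.265 to 1.91), and the goblet-led cells 7, 0.369 per 10000 (0.149 to 0.761), so the intervals overlapped. Ephb2 had 6 and 9 UMIs in these cells.

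**Figure D1:**
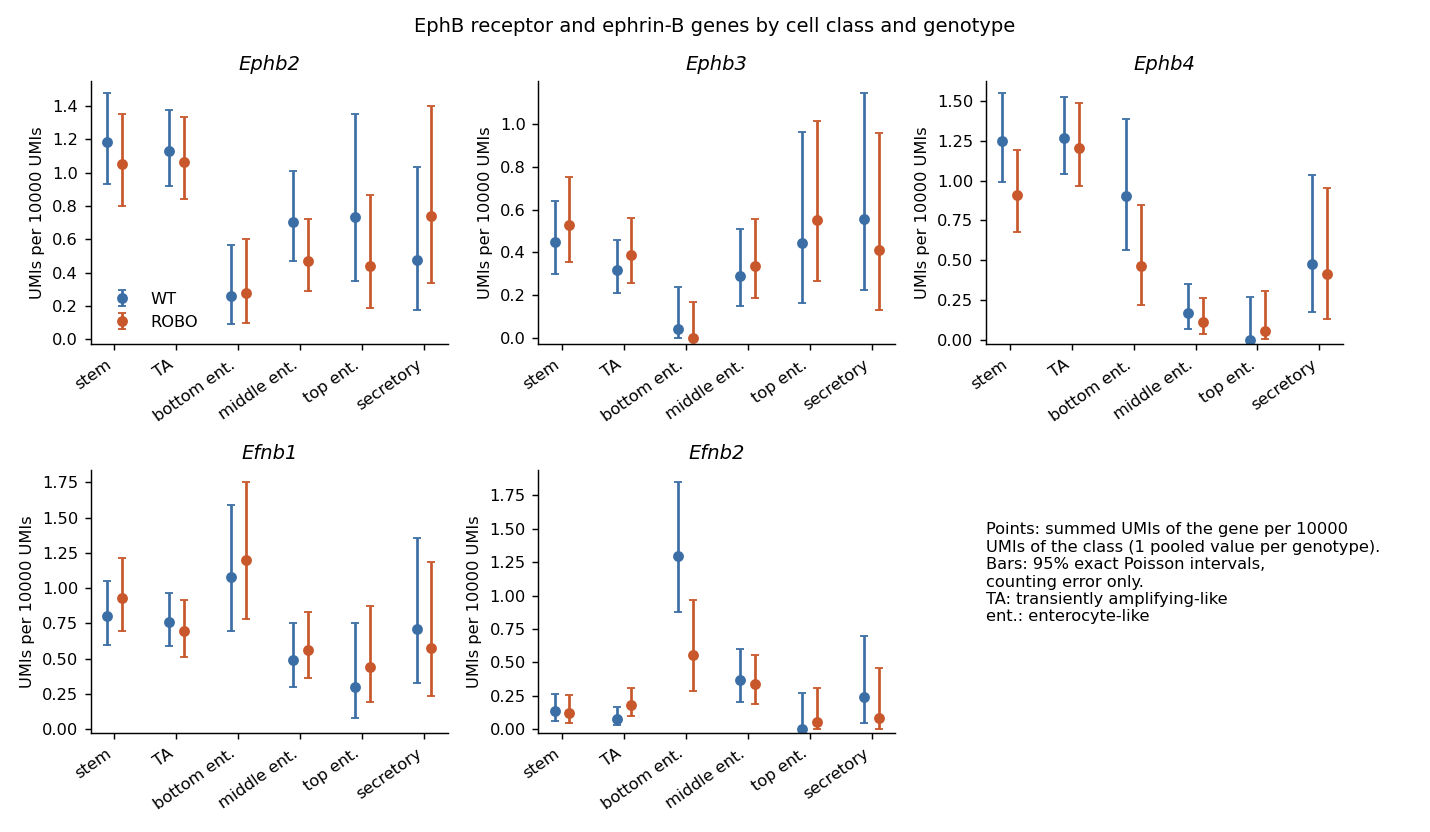
Level of each gene (vertical axis, UMIs per 10000 UMIs of the class) in 6 cell classes (horizontal axis), with WT in blue and ROBO in orange; points are pooled sums and bars exact 95% Poisson intervals. Ephb4 goes from 1.25 per 10000 in WT stem cell-like cells to 0 in WT top enterocyte-like cells, while Efnb2 peaks at 1.29 in WT bottom enterocyte-like cells.

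The ligands did not share 1 pattern. Efnb1 was higher in stem cell-like cells than in villus cells, as Ephb2 was. In WT its level was 0.8002 per 10000 (0.598 to 1.05) against 0.439 (0.281 to 0.653), and in ROBO 0.928 (0.695 to 1.21) against 0.527 (0.363 to 0.740). The log2 ratios were 0.87 (0.14 to 1.63) and 0.82 (0.16 to 1.49). With the deeper stem cell-like cluster alone, the WT ratio was 0.61 (-0.21 to 1.45), so that its interval crossed 0. Its highest level among the epithelial-like classes was in bottom enterocyte-like cells, with 25 UMIs in WT, 1.08 per 10000, and 26 in ROBO, 1.199 per 10000. These overlapped the levels of stem cell-like cells, and exceeded those of villus cells 2.46-fold (1.35 to 4.50) in WT and 2.28-fold (1.31 to 3.92) in ROBO. Away from the epithelium, 3 of the 8 fibroblast-like cells held 5 Efnb1 UMIs, 3.13 per 10000 (1.02 to 7.31).

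Efnb2 was the member whose level was higher in villus cells, 0.274 per 10000 (0.153 to 0.452) in WT and 0.255 (0.146 to 0.415) in ROBO, than in stem cell-like cells, 0.138 (0.0633 to 0.263) and 0.123 (0.0493 to 0.253). The log2 ratios of stem cell-like over villus cells, -0.99 (-2.36 to 0.30) and -1.06 (-2.58 to 0.30), did not leave out 0 in either genotype. With both genotypes summed, 16 against 31 UMIs, the log2 ratio was -1.01 (-1.98 to -0.10). Within the villus cells Efnb2 was uneven. Middle enterocyte-like cells held 15 UMIs in each genotype, and top enterocyte-like cells 0 in WT and 1 in ROBO. In ROBO, top enterocyte-like cells alone in place of all villus cells turned the direction (log2 1.15, with 1 UMI in the top cells), and so did giving every cell the same weight (0.34). With middle enterocyte-like cells alone the interval left out 0 in both genotypes, at -1.40 (-2.77 to -0.11) for WT and -1.46 (-2.99 to -0.08) for ROBO. With both crypt classes summed it did so for WT, at -1.39 (-2.51 to -0.28).

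The highest Efnb2 level stood in bottom enterocyte-like cells, which held 30 UMIs in 24 of 78 WT cells, 1.29 per 10000 (0.874 to 1.85), and 12 UMIs in 11 of 79 ROBO cells, 0.553 per 10000 (0.286 to 0.967). Both values exceeded those of stem cell-like cells, 9.35-fold (4.33 to 22.4) in WT and 4.51-fold (1.64 to 13.5) in ROBO. Both genotypes together, Efnb2 in bottom enterocyte-like cells exceeded every other epithelial-like cell 5.43-fold (3.63 to 8.04). Ephb2 was 3.46-fold lower in the same cells than in every other epithelial-like cell, a log2 ratio of -1.79 (-2.76 to -0.97). Ephb3, with 1 UMI against 176, stood at a log2 ratio of -4.20 (-9.51 to -1.70). Over all 10334 genes with at least 20 UMIs, 4.03% were at least 2-fold higher and 20% at least 2-fold lower in bottom enterocyte-like cells. Of the 5 members, Efnb2 was past 2-fold upwards, and Ephb2 and Ephb3 downwards. This comparison was chosen after the values had been seen. Without regression of the phase scores, where a second and shallower cluster also took the bottom name, the log2 ratio was 1.44 for Efnb2, -0.84 for Ephb2 and -0.51 (-1.20 to 0.12) for Ephb3. Bottom enterocyte-like cells were also the deepest class, with a median of 2724 UMIs against 1339.5 in stem cell-like cells. After each cell was thinned to 912 UMIs, 7.95% of bottom enterocyte-like cells held an Efnb2 UMI (4.17 to 13.5) against 1.05% of stem cell-like cells (0.341 to 2.43). Unthinned, the shares were 22.3% and 2.12%.

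**Figure D2:**
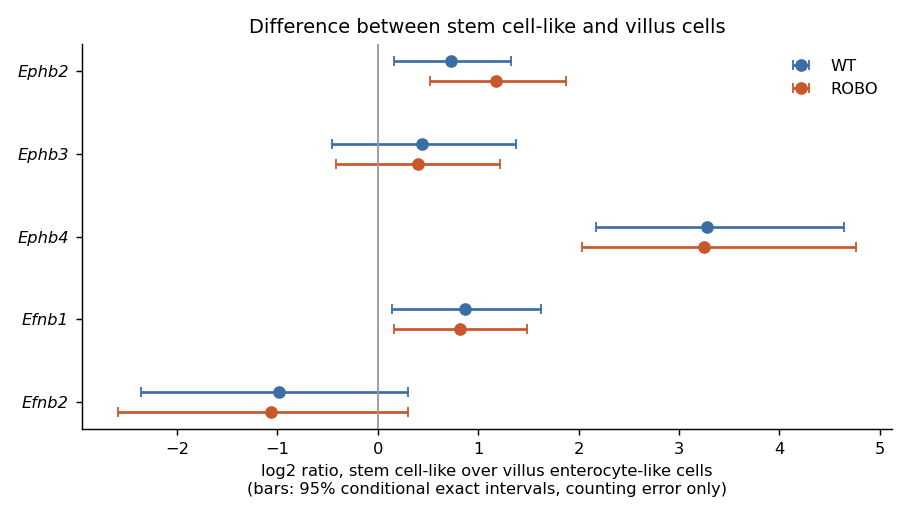
Log2 ratio of stem cell-like over villus enterocyte-like cells (horizontal axis) for each gene (vertical axis), WT in blue and ROBO in orange, with conditional exact 95% intervals as bars. Ephb4 stands apart at 3.28 and 3.25, Ephb2 and Efnb1 lie right of 0, and the intervals of Ephb3 and Efnb2 cross 0.

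The direction of a difference was read against all genes with at least 20 UMIs in the compared cells, since stem cell-like cells differed from villus cells in many genes. In WT, 26.8% of 7605 genes were at least 2-fold higher in stem cell-like cells and 12.4% at least 2-fold higher in villus cells, with a median log2 ratio of 0.34. Among the members Ephb4 passed 2-fold towards stem cell-like cells and none passed towards villus cells. In ROBO, the shares were 26% and 13.4% of 7543 genes, with a median of 0.33. There Ephb2 and Ephb4 passed towards stem cell-like cells and Efnb2 towards villus cells. The counting interval left out 0 for 3 of 5 members in each genotype, Ephb2, Ephb4 and Efnb1, all higher in stem cell-like cells. Over all genes, the interval did so upwards for 33.3% in WT and 32.4% in ROBO, and downwards for 17.9% and 18.6%. Read by rank, 36.2% of genes had a higher ratio than Ephb2 in WT and 20.8% in ROBO. For Efnb1 these shares were 31.2% and 31.5%, for Ephb3 46.5% and 46.8%, and for Efnb2 87.3% and 87.4%. For Ephb4 they were 1.31% and 1.33%.

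The difference between stem cell-like and villus cells was then compared between genotypes. The log2 ratio of the ROBO difference over the WT difference was 0.45 (-0.45 to 1.36) for Ephb2, -0.04 (-1.30 to 1.204) for Ephb3 and -0.03 (-1.92 to 1.90) for Ephb4. It was -0.05 (-1.07 to 0.96) for Efnb1 and -0.07 (-2.09 to 1.91) for Efnb2. None of the 5 intervals left out 0. Those of Ephb4 and Efnb2 are so wide that, at this depth, equal gradients cannot be told from ones that differ by the bounds given.

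A score from lists of genes gave the order of cells along the same axis without the borders between classes. It is not independent of the clusters, which chose the cells, and its lists share genes such as Lgr5 and Sis with the naming markers. For 2201 stem cell-like, transiently amplifying-like and enterocyte-like cells, the UMIs of 19 villus genes were taken as a share of those of these and 13 crypt genes, and the cells were cut into 5 bins of equal number. The 607 cells at 100% were ordered by the share of villus genes among all their UMIs. With both genotypes together, Ephb2 was lower at every step, from 134 UMIs and 1.47 per 10000 in bin 1 through 1.08, 0.780 and 0.594 to 27 UMIs and 0.406 in bin 5. Ephb4 held at 1.48 and 1.38 in the first bins and then went to 0.693, 0.372 and 0.165. Ephb3 went from 0.505 through 0.416, 0.279 and 0.255 to 0.331 in bin 5. Efnb1 stayed between 0.742 and 0.799 in the first 4 bins and stood at 0.572 in bin 5. Efnb2 was at 0.110 and 0.112 in bins 1 and 2 and at 0.260, 0.361 and 0.421 in bins 3, 4 and 5.

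In bin 1 over bin 5, the log2 ratio was 1.86 (1.25 to 2.51) for Ephb2, 3.16 (2.28 to 4.20) for Ephb4 and -1.94 (-3.15 to -0.85) for Efnb2. For Ephb3 it was 0.61 (-0.15 to 1.41) and for Efnb1 0.47 (-0.12 to 1.07), and both intervals crossed 0. Ephb3 alone in WT stood at 1.29 (0.03 to 2.75), just past 0, and in ROBO at 0.14 (-0.87 to 1.19). Between genotypes, the Efnb2 intervals of bin 5 did not overlap. WT cells of bin 5 held 23 UMIs of it, 0.672 per 10000 (0.426 to 1.01), and ROBO cells 5, 0.155 per 10000 (0.0504 to 0.362). The WT log2 ratio of bin 1 over bin 5 was -3.01 (-5.01 to -1.46) and that of ROBO -0.15 (-2.13 to 1.90). The difference between these was not tested, and the share of all genes with such a gap in a bin was not computed. Bin 5 was not made of villus cells alone. It held 9.29% bottom enterocyte-like and 11.5% transiently amplifying-like cells in WT, and 6.54% and 10.7% in ROBO. All WT villus cells together held 15 Efnb2 UMIs, so those of WT bin 5 came in part from other classes. In villus cells the log2 ratio of ROBO over WT was -0.10 (-1.21 to 1.02). Cells of bin 5 were the shallowest, with medians of 1144 UMIs in WT and 1230 in ROBO.

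**Figure D3:**
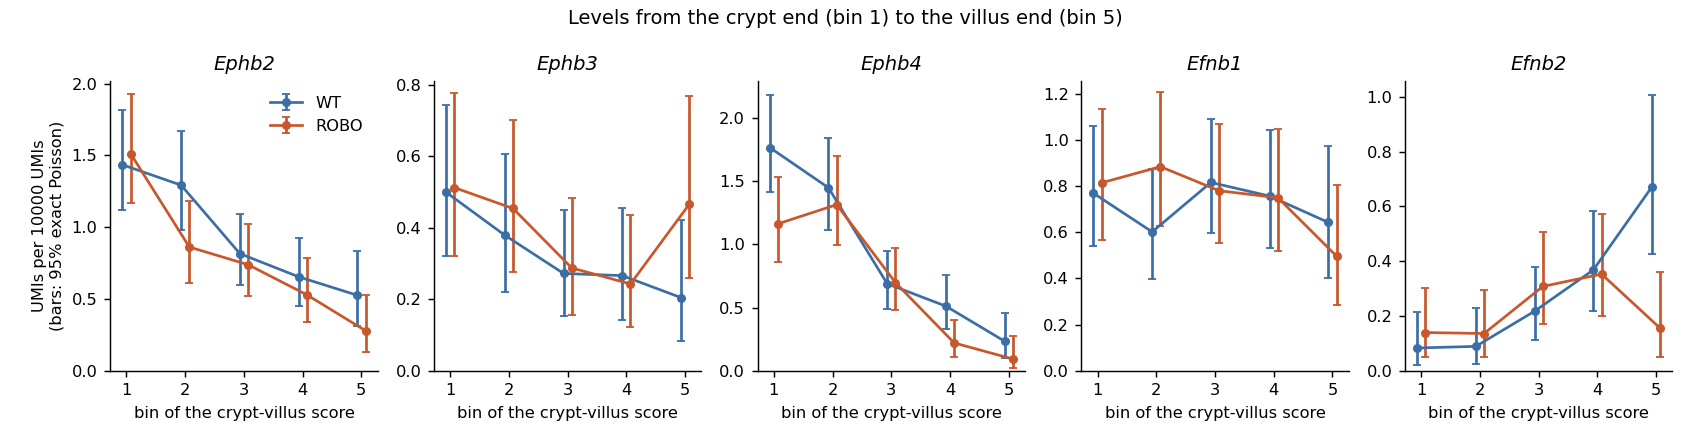
Level of each gene (vertical axis, UMIs per 10000 UMIs) in 5 bins of cells from the crypt end (1) to the villus end (5) of the crypt-villus score (horizontal axis), WT in blue and ROBO in orange, with exact 95% Poisson intervals. Ephb2 and Ephb4 are lower towards the villus end in both genotypes, Efnb1 is nearly level, and Efnb2 reaches 0.672 in WT and 0.155 in ROBO in bin 5.

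The balance of receptor to ligand within a class does not depend on the total UMIs of the class. It was taken for Ephb2 and Ephb3, the receptors named above as Wnt targets, and then with Ephb4 as well. Both shares were chosen after the values had been seen. They are another reading of the counts given above, not a separate finding. Ephb2 and Ephb3 made up 61.8% of the summed UMIs of Ephb2, Ephb3, Efnb1 and Efnb2 in stem cell-like cells, 196 of 317 (56.2 to 67.2). In transiently amplifying-like cells they made up 63.0%, 233 of 370. In bottom enterocyte-like cells they made up 12.3%, 13 of 106 (6.69 to 20.1), most UMIs there being those of the ligands. In middle enterocyte-like cells the share was 50.7%, 77 of 152 (42.4 to 58.9), and in top enterocyte-like cells 72.3%, 34 of 47 (57.4 to 84.4). The share was thus lowest at the bottom of the enterocyte series, and its interval at the top overlapped those of the crypt classes. Middle enterocyte-like cells came from 2 clusters that were unlike in these receptors. In the cluster of 129 cells led by Sis, Ephb2 stood at 0.327 and Ephb3 at 0.098 per 10000, from 10 and 3 UMIs. In the cluster of 286 cells led by Cubn they stood at 0.727 and 0.436. The share was not computed for each cluster. Both genotypes had the low share, with 11.3% (4.66 to 21.9) in WT and 13.6% (5.17 to 27.4) in ROBO bottom enterocyte-like cells. With Ephb4 counted as a receptor, also a choice made after the values had been seen, the share in bottom enterocyte-like cells was 32.1%, 44 of 137 (24.4 to 40.6), since Ephb4 gave 31 of the 44 receptor UMIs. It was then 73.1% in stem cell-like, 75.9% in transiently amplifying-like, 54.3% in middle and 72.9% in top enterocyte-like cells. The bottom cells again had the lowest share of these 5 classes, and their interval did not overlap the others.

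**Figure D4:**
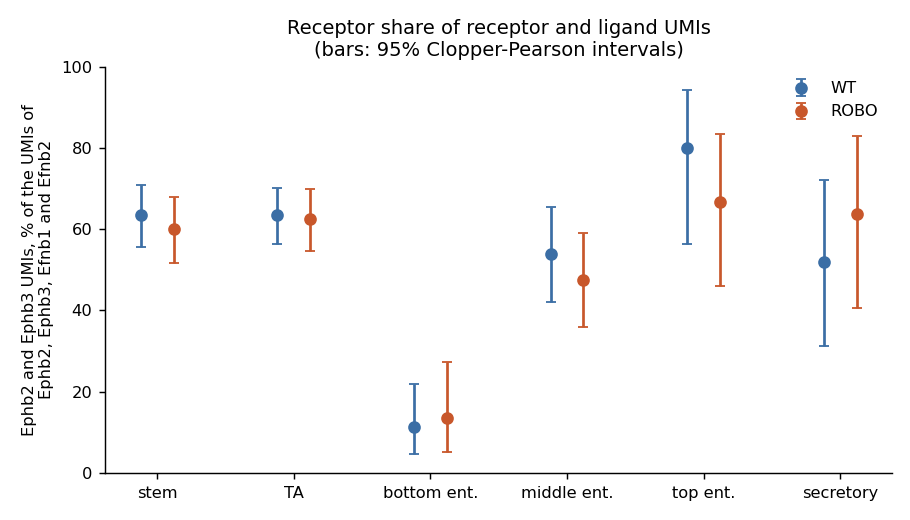
UMIs of Ephb2 and Ephb3 as a percentage of the UMIs of Ephb2, Ephb3, Efnb1 and Efnb2 (vertical axis) in 6 cell classes (horizontal axis), WT in blue and ROBO in orange, with Clopper-Pearson 95% intervals. Bottom enterocyte-like cells stand at 11.3% and 13.6%, below the stem cell-like and transiently amplifying-like cells of both genotypes.

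Receptor and ligand were seldom caught in the same cell. Of 1792 epithelial-like cells thinned to 912 UMIs, 163 held a UMI of Ephb2 or Ephb3 alone, 136 one of Efnb1 or Efnb2 alone, 9 held both and 1484 neither. A ligand UMI was found in 5.23% of cells with a receptor UMI and in 8.40% of the rest. Unthinned, 84 of 2364 cells held both, and the shares were 17.6% and 15.1%, so the order depended on depth. In thinned villus cells 0 of 498 held both, which allows up to 0.602%. At this depth a cell without a UMI cannot be called free of the transcript.

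Lgr5 was used to look within the crypt. Among stem cell-like and transiently amplifying-like cells, 191 held an Lgr5 UMI and 1218 did not. Ephb4 stood at 1.497 per 10000 in the former and 1.11 in the latter, a log2 ratio of 0.43 (0.03 to 0.82). By genotype the ratio was 0.65 (0.14 to 1.13) for WT and 0.05 (-0.68 to 0.71) for ROBO. Ephb3 stood at 0.586 and 0.372 (log2 0.66, -0.02 to 1.29), Ephb2 at 1.24 and 1.09 (0.19, -0.25 to 0.61) and Efnb1 at 0.608 and 0.820 (-0.43, -1.06 to 0.14). Efnb2 had 3 UMIs in the Lgr5 cells and 33 in the others. Cells with an Lgr5 UMI were deeper, with a median of 1984 against 1463.5 UMIs, and the part of depth was not tested.

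The genotypes were compared over all epithelial-like cells, 1211 in WT and 1153 in ROBO. Ephb4 had 230 UMIs in WT, 0.933 per 10000 (0.816 to 1.06), and 162 in ROBO, 0.711 per 10000 (0.606 to 0.830). Its log2 ratio of ROBO over WT was -0.39 (-0.69 to -0.10), the one interval of the 5 that left out 0. Ephb2 stood at 0.925 and 0.799 (log2 -0.21, -0.50 to 0.08). Ephb3 stood at 0.349 and 0.400 (log2 0.20, -0.25 to 0.64). Efnb1 stood at 0.718 and 0.751 (log2 0.06, -0.25 to 0.38). Efnb2 stood at 0.268 and 0.220 (log2 -0.29, -0.85 to 0.27). For counting error alone, the intervals leave out a change of 1.5-fold upwards for Ephb2, Ephb4, Efnb1 and Efnb2, but not for Ephb3. They leave out a change of 1.5-fold downwards for Ephb2, Ephb3 and Efnb1, but not for Ephb4 and Efnb2.

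None of the 5 members passed 1.5-fold in either direction, against 4.58% of 10334 genes higher and 4.59% lower in ROBO. The counting interval left out 0 downwards for 7.26% of genes and upwards for 7.11%, so an interval like that of Ephb4 was not rare. With 1 pooled sample a genotype, a difference between mice or libraries cannot be told apart from one between genotypes. In stem cell-like cells the log2 ratios were -0.17 (-0.68 to 0.33) for Ephb2, 0.24 (-0.55 to 1.02) for Ephb3, -0.45 (-0.98 to 0.07) for Ephb4 and 0.21 (-0.37 to 0.79) for Efnb1. None of these 4 passed 1.5-fold, against 7.25% of 7809 genes higher and 9.02% lower in ROBO. Efnb2 had 9 and 7 UMIs there, under the minimum of 20.

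In the other named classes, 1 interval of a member left out 0. Efnb2 in bottom enterocyte-like cells was 2.34-fold lower in ROBO, a log2 ratio of -1.23 (-2.33 to -0.22), from the 30 and 12 UMIs given above. Shares of thinned cells cannot decide on this difference, since thinning leaves few counts and wide intervals. Thinned to 912 UMIs, 6 of 72 WT cells held an Efnb2 UMI, 8.33% (3.12 to 17.3), and 6 of 79 ROBO cells, 7.59% (2.84 to 15.8), against 30.8% and 13.9% unthinned. The class had similar median depths before thinning, 2774 UMIs in WT and 2659 in ROBO. Over the 4376 genes with at least 20 UMIs in this class, the interval left out 0 downwards for 6.9% and upwards for 5.71%, and of the 3 members with that many UMIs it did so for Efnb2. Efnb1 in the same cells had a log2 ratio of 0.15 (-0.70 to 1.00) and Ephb4 one of -0.98 (-2.23 to 0.17). In the unnamed cluster, which is not among the epithelial-like classes, 19 UMIs of Efnb1 came from WT cells and 4 from ROBO cells (log2 -1.68, -3.70 to -0.10). Alpi stood at 11.4 per 10000 in its WT cells and at 12.8 in its ROBO cells. Efnb1 is X-linked, and Xist, the RNA of the inactive X chromosome of females, had 1 UMI in WT and 2 in ROBO, while the Y-linked Ddx3y and Eif2s3y had 167 and 189 UMIs in WT and 149 and 169 in ROBO.

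**Figure D5:**
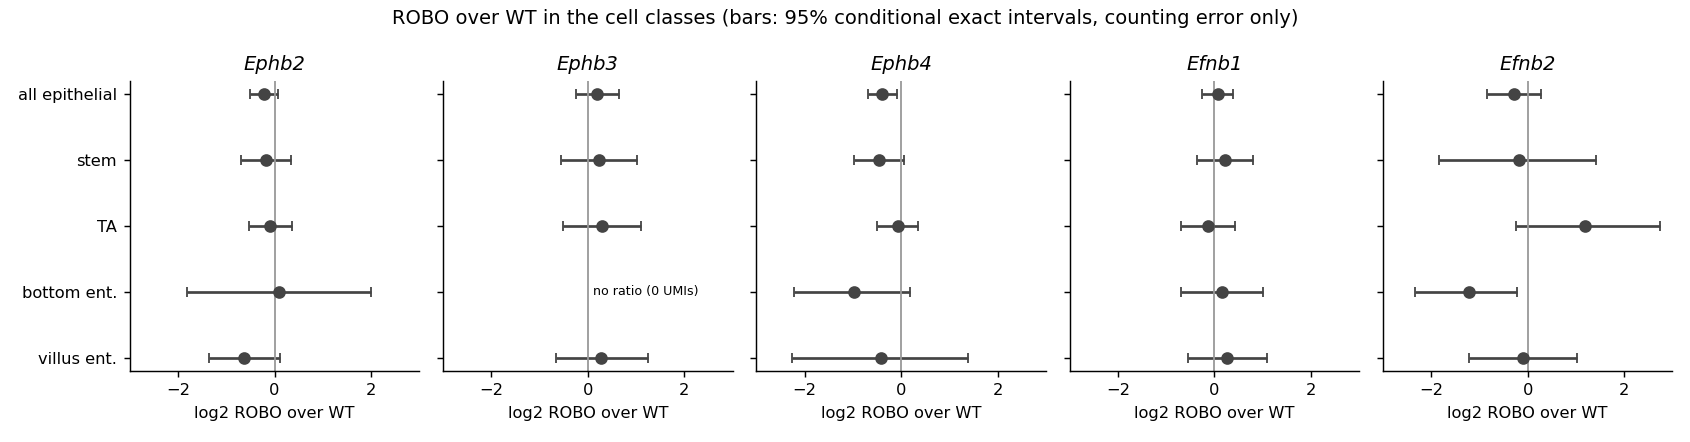
Log2 ratio of ROBO over WT (horizontal axis) for each gene in all epithelial-like cells and in 4 groups of classes (vertical axis), with conditional exact 95% intervals as bars; no ratio is drawn for Ephb3 in bottom enterocyte-like cells, which had 1 and 0 UMIs. The intervals cross 0 except those of Ephb4 over all epithelial-like cells (-0.39) and of Efnb2 in bottom enterocyte-like cells (-1.23).

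The other 17 Eph and ephrin genes ranged from none to more UMIs than any member. No UMI was counted for 7 of them, Epha3, Epha5, Epha6, Epha8, Epha10, Ephb1 and Efna3, and 6 had fewer than 50. Of the 4 with at least 50, Efna4 (171 UMIs) was higher in stem cell-like than in villus cells, at a log2 ratio of 2.59 (1.70 to 3.60) over both genotypes. Its direction was that of Ephb4. Efna1 (539 UMIs, -1.22, -1.60 to -0.85), Epha2 (612 UMIs, -0.98, -1.34 to -0.62) and Epha1 (55 UMIs, -1.70, -3.06 to -0.51) were lower in stem cell-like cells. Epha2 and Efna1 were counted more often than Ephb2, which had the most UMIs of the members, 429. Past 2-fold were 1 of the 4 towards stem cell-like and 2 towards villus cells, against 27.8% and 11.9% of all 9115 genes, and their median was -1.10 against 0.39. Over epithelial-like cells 1 of the 4, Epha1, was past 1.5-fold lower in ROBO (log2 -0.93, -1.89 to -0.03), against 4.59% of all genes. Epha1 had 33 UMIs in WT and 22 in ROBO over all cells.

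Of 22 genes whose products act with Eph receptors and ephrins, 16 had at least 50 UMIs, and their median log2 ratio of stem cell-like over villus cells was 0.61, against 0.39 over all genes. Past 2-fold were 4 towards stem cell-like and 2 towards villus cells, 25% and 12.5% of the 16, close to the 27.8% and 11.9% of all genes given above. Those that differed most were Fyn, a Src family kinase (2.22, 0.92 to 3.77), Tiam1, an activator of Rac (2.17, 0.32 to 4.61), and Abl2, a kinase of the cytoskeleton (1.75, 0.70 to 2.93). In the other direction stood Pard6b, a polarity protein (-1.24, -1.91 to -0.60), and Src (-1.17, -1.69 to -0.67). The ratio of Fyn came from 29 UMIs in stem cell-like and 6 in villus cells. Its highest level was in immune-like cells, 4.12 per 10000, with 37 of its 107 UMIs, against 0.238 in stem cell-like cells. Adam10, a protease known to cleave ephrins and E-cadherin, was at 1.04 (0.57 to 1.53). Between genotypes 1 of the 16, Fyn, was past 1.5-fold higher in ROBO (log2 0.86), and 1, Tiam1, lower (-0.62), each 6.25% of the 16, against 4.58% and 4.59% of all genes.

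The genes whose pattern was most like each member were sought among 5106 genes with at least 200 UMIs, by Pearson's r of log2 levels (0.1 per 10000 added) over 14 points, the 7 epithelial-like classes in each genotype. The points share libraries and differ in depth, and the enteroendocrine-like ones hold few cells. For Ephb2 these were Tmem222 (0.91), Cdca7 (0.90), a marker also used to name stem cell-like cells, and Cdkn2aipnl (0.90). For Ephb4 they were Polr2h (0.97), a subunit of RNA polymerases, Psmg3 (0.96), which helps proteasomes assemble, and Rpl27 (0.96), a ribosomal protein. For Efnb1 they were Fam162a (0.96), Mtx2 (0.95) and Lrrc47 (0.94). The values for Ephb3 (Hps4 0.88, Fryl 0.88, Dgkd 0.88) and Efnb2 (Akr1c13 0.89, Rps6ka1 0.86, Slc25a11 0.86) were lower. Among the members themselves, r ran from -0.66 between Ephb2 and Efnb2 to 0.60 between Ephb2 and Efnb1.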

How the data were processed

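The authors made the files in BaseSpace; each genotype has 1 deposited matrix of raw counts (UMIs), not normalized. The submitters' processing notes name mm10 and GRCm38; the aligner is not given in the sources used here. The deposited matrices were combined and clustered in Seurat 5.3.0 (R 4.3.3) from 2000 variable genes on 20 principal components at a resolution of 0.8. The S and G2/M scores were regressed out. The 15 Eph and ephrin genes found in at least 3 cells were kept out of the choice of these 2000 genes. No cell was left out. Scrublet (scanpy 1.11.5) called 2 WT and 4 ROBO doublets, which were kept. A cluster could take a name where at least 3 markers were raised 1.5-fold, with 0.1 added, and found in 10% of its cells. The name was dropped where none of its markers was among the 10 leading genes, or where another type had more there. By this step the unnamed cluster, with 6 middle enterocyte markers raised, lost that name and stayed outside the epithelial-like classes. These rules were set after the clusters were seen.

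Levels are summed UMIs of a gene over those of the class, per 10000. Intervals (scipy 1.17.1) are exact Poisson for levels, conditional exact for ratios and Clopper-Pearson for shares; for a count of 0, the limit is that of 3 counts. Code was tested on simulated data. The genes, lists and naming rule were chosen with earlier results of these data known: the 5 members; other family members with at least 50 UMIs; the 5 partners that differed most, Adam10 being named outside this rule; the 3 genes most like each member; sex-linked genes; Lgr5 and Alpi.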

Additional observations from a re-analysis of the deposited data

How the results depend on the processing

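The differences between stem cell-like and villus cells and the ratios of ROBO over WT over all epithelial-like cells were recomputed with other clusterings (Eph genes kept, no regression of phase scores, resolutions of 0.5 and 1.2), with cells of at least 500 genes, without doublets, without the 100 most abundant genes in the denominator, with equal cell weights, with top or middle enterocyte-like cells alone, and without the cell with the most UMIs of the gene. The ratios of ROBO over WT were also recomputed with the same weight of each class in both genotypes. The receptor share, with or without Ephb4, was added after seeing the data and is counted among the other values further below. Added likewise to the differences and ratios were both crypt classes summed, the deeper stem cell-like cluster alone and all deposited cells. Of these differences and ratios, 161 stayed within the counting interval of the reported one. The 2 that did not were those of Efnb2 in ROBO, 0.34 with equal cell weights and 1.15 with top enterocyte-like cells alone. Where a reported interval crossed 0, a value within it could still change sign. Those of Ephb3 did so with no regression of phase scores, at -0.26 in WT and -0.03 in ROBO. The interval of Efnb1 in WT crossed 0 with no regression of phase scores (0.50), with middle (0.72) or top (1.44) enterocyte-like cells alone and with the deeper stem cell-like cluster (0.61). With top cells alone it also did so for Efnb1 in ROBO (1.07) and Ephb2 in WT (0.69). Intervals that crossed 0 as reported left it out for Ephb3 in ROBO at a resolution of 0.5 (0.86), for Efnb2 in WT (-1.40) and ROBO (-1.46) with middle enterocyte-like cells alone, and for Efnb2 in WT with both crypt classes summed (-1.39). Of the other values, in stem cell-like and bottom enterocyte-like cells, score bins, shares of cells, receptor shares and likeness, 102 stayed within the interval or count and 16 moved: 7 were shares of cells before thinning, 3 were bottom enterocyte-like values without phase regression, 3 were receptor shares with Ephb4 counted (73.1%, 75.9% and 32.1%), 1 was Ephb4 in WT with 10 bins, and for Ephb2 and Ephb3 1 of the 3 most alike genes was kept at a minimum of 500 UMIs. A resolution of 0.5 named no bottom enterocyte-like cluster, so it gave no value there.

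No paired analysis was possible because the cell names do not give the labelled sample. Depth limits every class level, and Efnb2 most.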
